A study of Homo sapiens with 10 samples.

Results

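The small Cajal body RNAs (scaRNAs) are short noncoding RNAs that stay in the nucleus and guide the chemical modification of spliceosomal RNAs. Genes were taken from the probe annotation by symbol, as every symbol that starts with SNORA, SNORD or SCARNA followed by a number. This gave 23 of the 14884 genes with a named probe set, and each of the 23 has 1 probe set. All 23 carry a SCARNA symbol and 0 carry a SNORA or a SNORD symbol, so the H/ACA and C/D small nucleolar RNAs (snoRNAs) of the nucleolus were not analysed here. A gene table from RefSeq lists 182 SNORA, 362 SNORD and 29 SCARNA genes. The planned comparison of 3 classes therefore has 1 class, and the scaRNAs are described by structural type in its place.

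The RNA came from HEK293T, a line of human embryonic kidney origin with the SV40 large T antigen, and was measured on 10 Affymetrix GeneChip Human Gene 2.0 ST arrays. Bacterial extracellular vesicles (bEVs), membrane particles shed by bacteria, were given for 6 h on 8 of the arrays, 1 array for each of L. acidophilus, L. rhamnosus, L. plantarum, L. salivarius, S. thermophilus, L. paracasei, L. fermentum and Lc. lactis. The other 2 arrays are control 1 and control 2. By the methods, RNA of triplicate samples was pooled into 1 composite sample, which is not said of the controls in particular. The spread between the samples of 1 pool cannot be read from the values. Each bEV was used at its own maximum tolerated dose (MTD), and strain and dose cannot be told apart. The protocol field shared by all samples names an agent, Pk2, given or not given at 10 nM, without saying to which cells, and the titles of some bEV samples number the line from HEK294T to HEK297T while the cell line field of all samples reads HEK293T. Values are log2 signals as deposited. Array medians ran from 3.29 to 3.33 over all 53617 probe sets, and no library size applies to arrays. Of the markers listed for the line, VIM had a mean signal of 7.89, KRT18 of 7.54, PAX2 of 4.47 and KRT8 of 4.10, the last pair below the median signal of all genes (4.63). Markers of other cell types were at 2.32 for CD14, 2.42 for PECAM1, 2.67 for ALB and 3.68 for KRT14, all below that median as well.

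A scaRNA pairs with a spliceosomal small nuclear RNA and brings an enzyme to 1 or more of its nucleotides. Box C/D scaRNAs bind fibrillarin, which adds a methyl group to the ribose, and box H/ACA scaRNAs bind dyskerin, which turns uridine into pseudouridine. Some scaRNAs hold both kinds of box and are called mixed here. Most human scaRNAs are cut out of the introns of a host gene, and a few, such as SCARNA2 and SCARNA17, are known to be made from a promoter of their own. A CAB box or a related motif keeps the RNA in the Cajal body, a nuclear body built on coilin. By textbook structure, 5 of the 23 scaRNAs are box C/D (SCARNA2, SCARNA7, SCARNA9, SCARNA9L and SCARNA17), 4 are mixed (SCARNA5, SCARNA6, SCARNA10 and SCARNA12), 13 are H/ACA and SCARNA27 was left unassigned. These types were set after the symbols in the probe annotation had been seen.

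Sequence was at hand for 3 scaRNAs, where a RefSeq miRNA hairpin or a gene start window overlaps them (build GRCh38.p14). The SCARNA16 stretch lies on the plus strand at chr17:77089417-77089493 and is also the hairpin of MIR6516. The SCARNA3 stretch lies on the minus strand at chr1:175968397-175968479 and is also the hairpin of MIR1843. Both reach the end of the scaRNA gene and are shown because they hold the ACA box from which the H/ACA type has its name, given in capitals. The SCARNA17 stretch, on the plus strand at chr18:49814023-49814072, holds its first 50 bases and is shown because SCARNA17 had the largest difference between the controls among the box C/D scaRNAs.
SCARNA16 3′ end: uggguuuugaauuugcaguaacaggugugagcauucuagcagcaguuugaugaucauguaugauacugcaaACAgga
SCARNA3 3′ end: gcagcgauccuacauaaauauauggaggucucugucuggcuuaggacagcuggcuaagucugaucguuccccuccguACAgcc
SCARNA17 5′ end: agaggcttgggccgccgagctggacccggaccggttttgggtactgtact
The letters ACA were searched on the strand of the RNA alone, at the place that leaves 3 bases after them, and 28 of the 1562 hairpins of the table (1.79%) hold them there. SCARNA16 and SCARNA3 both do. A match of letters is a description only.

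The mean signals of the scaRNAs ran from 2.84 to 9.43, within the 1.33 to 12.9 of all genes, and 16 of 23 were at or above the median signal of all genes. All 5 box C/D and all 4 mixed scaRNAs were among these 16, against 6 of 13 H/ACA scaRNAs. The median signal was 6.76 for the 23 scaRNAs. Within the types it was 8.16 for box C/D, 7.55 for mixed and 4.46 for H/ACA scaRNAs. Probe sets differ in how well they bind, so these medians describe signals and do not rank amounts of RNA. The RefSeq gene lengths ran from 330 to 421 bases for box C/D, from 266 to 330 for mixed and from 125 to 187 for H/ACA scaRNAs. RNA was taken up on a silica column, a method known to recover short RNAs poorly, and its part in these signals was not tested.

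**Figure D1:**
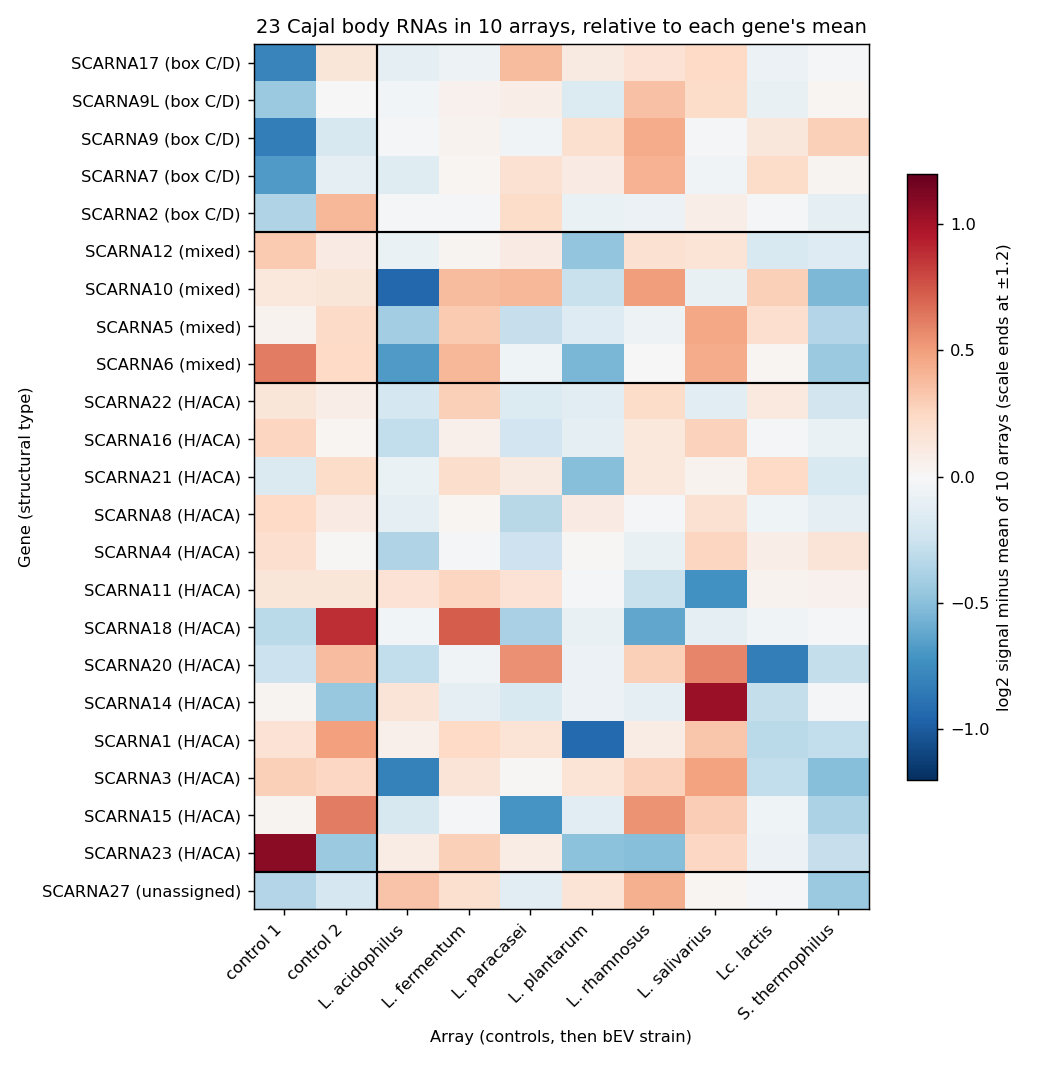
Each row is 1 of the 23 scaRNAs, ordered by structural type and then by mean signal, and each column is 1 of the 10 arrays, with the 2 controls on the left. Colour gives the log2 signal minus that gene's own mean over the 10 arrays. The 5 box C/D rows are all blue in control 1, and SCARNA6 and SCARNA10 are blue in L. acidophilus, L. plantarum and S. thermophilus.

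The 2 controls, the only arrays that share a condition, differed more at the median of the scaRNAs than at that of all genes. The median size of the difference between the controls was 0.375 on the log2 scale for the 23 scaRNAs and 0.169 for all genes. The DEG cutoff of the study, 1.5-fold, was passed between the controls by 6 of 23 scaRNAs (26.1%), against 5.44% of all genes. Of these, 5 were lower in control 1, beside 2.75% of all genes, and 1 was higher, beside 2.68%. Among the 16 scaRNAs at or above the median signal it was passed by 3, against 3.12% of genes at that signal, and their median difference was 0.225 against 0.145. The count of 6 fell to 2 at a cutoff of 2-fold, with no share of all genes set beside it.

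The box C/D scaRNAs carried the most regular part of this difference, since 5 of 5 were lower in control 1. Their median difference, control 1 minus control 2, was -0.63, while 7060 of 14884 genes were lower in control 1 and the median of all genes was 0.02. SCARNA17, also called U91 and known to guide methylation of U4, had a signal of 8.64 in control 1 and 9.58 in control 2, and the bEV arrays ran from 9.32 (L. acidophilus) over a median of 9.48 to 9.81 (L. paracasei). Its control 1 array was thus the lowest of all 10, and control 2 lay within the bEV arrays. SCARNA2, which guides methylation of U2, had 7.40 in control 1 and 8.16 in control 2. The bEV arrays of SCARNA2 lay between the controls, from 7.66 to 7.98 with a median of 7.74, and their SD of 0.105 was larger than that of 14.8% of genes. The SCARNA2 difference of -0.76 between the controls was larger than that of 98.0% of genes. SCARNA9L, a near-identical relative of SCARNA9, had 8.72 in control 1, 9.17 in control 2 and 9.0 to 9.51 in the bEV arrays (median 9.20). Signal of SCARNA9 and SCARNA9L may be shared between their probe sets, so their values are uncertain as separate measurements.

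In the H/ACA scaRNAs the controls differed in both directions, and the largest differences were at low signal. SCARNA23, also called ACA12 and known to guide U6, had 3.92 in control 1 and 2.40 in control 2, a difference of 1.52 and the largest of the 23. All 8 bEV arrays of SCARNA23 lay below control 1, from 2.33 to 3.13 with a median of 2.85. SCARNA18 had 4.14 in control 1 and 5.35 in control 2, and the bEV arrays ran from 3.84 to 5.19 around a median of 4.39. Both scaRNAs were below the median signal of all genes. SCARNA14 differed by 0.49 and SCARNA16, also called ACA47, by 0.23, both higher in control 1. SCARNA11, known to guide U5, read 5.02 in both controls. In the mixed scaRNAs the controls were close, since none of the 4 passed 1.5-fold, SCARNA10 had 8.08 and 8.10, and the largest difference was 0.37 for SCARNA6.

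**Figure D2:**
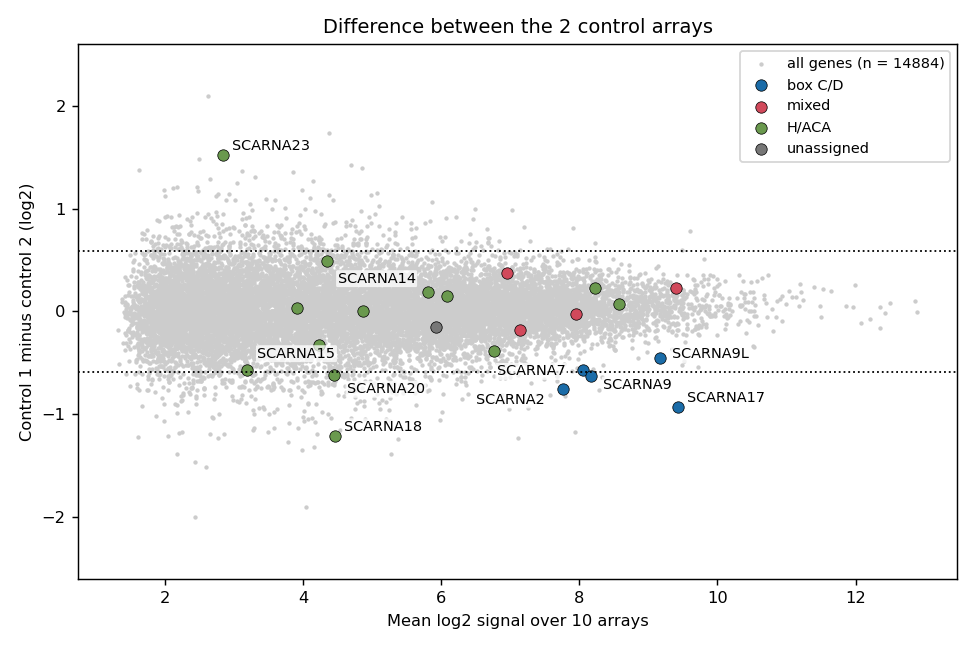
The x axis gives the mean log2 signal over 10 arrays and the y axis control 1 minus control 2 on the log2 scale, for all 14884 genes in grey and for the 23 scaRNAs in colour by structural type. Dotted lines mark 1.5-fold. The 5 box C/D scaRNAs lie below 0 at a mean signal from 7.76 to 9.43, while SCARNA23 at 1.52 and SCARNA18 at -1.21 lie at low signal.

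Whether the scaRNAs moved under bEVs in general was asked by setting the 8 bEV arrays against the 2 controls. By limma with Benjamini-Hochberg adjustment over all genes, 0 of 23 scaRNAs were called higher or lower, beside 0% of all genes in each direction. The median change of the 23 was -0.17 on the log2 scale, against 0.00 for all genes. Of the 23, 17 were below 0, beside 7410 of 14884 genes. These signs turned in part on the control. Against control 1 alone SCARNA2, SCARNA18, SCARNA20 and SCARNA21 were above 0. Against control 2 alone SCARNA17 was below 0 and SCARNA23 above. An unadjusted p under 0.05 was found for 2 scaRNAs, SCARNA9 and SCARNA7, beside 11.3% of all genes. Both were higher, as were 5.92% of all genes at that p, and 0 scaRNAs were lower, beside 5.38%. Nothing says that the controls came from separate cultures, so the p-values reflect only how these arrays vary, which includes differences between strains and doses. A signal from a whole culture does not tell fewer cells that make an RNA from less RNA per cell.

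SCARNA9, which guides methylation of U2 from an intron of CEP295, stood highest in this comparison. Its signal was 7.34 in control 1 and 7.97 in control 2, and the bEV arrays ran from 8.12 (L. paracasei) over a median of 8.25 to 8.61 (L. rhamnosus). It was the only scaRNA for which all 8 bEV arrays lay above both controls, a pattern found in 5.11% of all genes, and for 0 scaRNAs did all 8 lie below both, found in 4.07%. Against control 2 alone, all 8 bEV arrays lay above for 2 scaRNAs and below for 4, beside 15.5% and 12.4% of all genes, and against control 1 alone for 5 and 4, beside 14.5% and 14.3%. The change was 0.64 ± 0.16 (SE, n = 8 bEV arrays and 2 controls), with an adjusted p of 0.300 in limma. The difference between the controls of SCARNA9, at 0.63, was as large as this change. Against control 2 alone the change was 0.32, and against control 1 alone 0.95.

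SCARNA7, also called U90 and known to guide methylation of U1, had 7.38 in control 1 and 7.95 in control 2. The bEV arrays ran from 7.91 (L. acidophilus) over 8.13 to 8.48 (L. rhamnosus), so that L. acidophilus alone was not above control 2. The change of SCARNA7 was 0.50 ± 0.16 (SE), with an adjusted p of 0.341 in limma, and it was 0.78 against control 1 alone and 0.21 against control 2 alone. For SCARNA17 the change was 0.40 ± 0.19 (SE) with an adjusted p of 0.457, and against control 2 alone it was -0.06. As a type, the box C/D scaRNAs had a median change of 0.40, which was 0.78 against control 1 alone and 0.04 against control 2 alone. The level of control 1 thus moves with this value, and whether it belongs to that array or to the cells was not tested.

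The mixed and the H/ACA scaRNAs lay on the other side. All 4 mixed scaRNAs had a mean below that of the controls, with a median change of -0.22, which was -0.26 against control 1 alone and -0.22 against control 2 alone. Of the H/ACA scaRNAs 12 of 13 were below 0, beside 7410 of 14884 genes. Their median was -0.18 against either control alone, which is the value of SCARNA11, whose controls were equal. The signs did turn on the control. Against control 1 alone SCARNA14, SCARNA18, SCARNA20 and SCARNA21 were above 0, and against control 2 alone SCARNA14 and SCARNA23. SCARNA6 had the lowest change of the mixed type at -0.53 ± 0.26 (SE, adjusted p = 0.463 in limma). SCARNA12, with the highest mean signal of the mixed type, had 9.72 in control 1 and 9.50 in control 2, and the bEV arrays ran from 8.93 (L. plantarum) over 9.38 to 9.59 (L. rhamnosus), a change of -0.26 ± 0.16 (SE, adjusted p = 0.564). SCARNA22, which lies in an intron of NSD2 and is known as an orphan guide, had the highest mean signal of the H/ACA type. It read 8.72 and 8.65 in the controls and 8.35 to 8.86 in the bEV arrays, and its change was -0.14 ± 0.14 (SE, adjusted p = 0.755). SCARNA16, whose 3′ end is given above, read 8.48 and 8.25 in the controls and 7.93 to 8.50 in the bEV arrays. In none of these 4 were the bEV arrays apart from the controls.

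**Figure D3:**
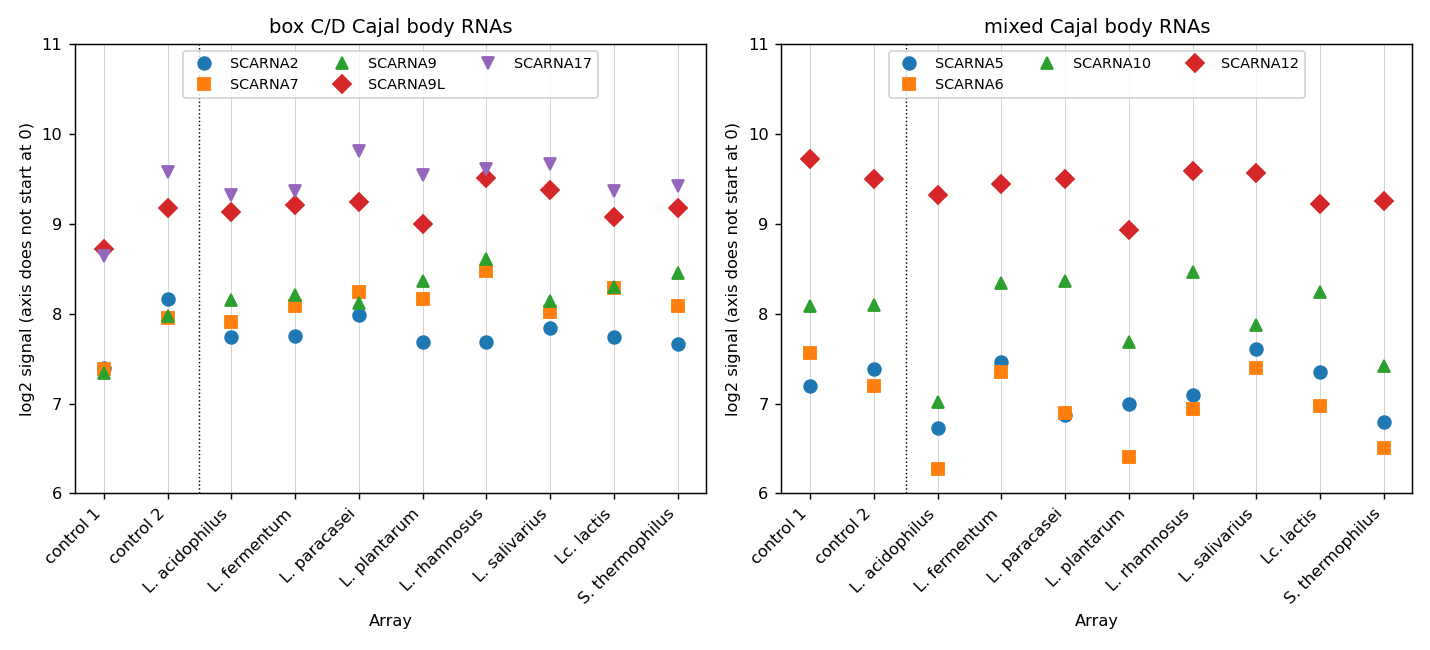
Each point is the log2 signal of 1 scaRNA on 1 array, with the 5 box C/D scaRNAs on the left, the 4 mixed ones on the right, and the 2 controls before the dotted line. Box C/D points are lowest in control 1, as SCARNA17 at 8.64 and SCARNA9 at 7.34, and the mixed points of SCARNA6 and SCARNA10 are lowest in L. acidophilus at 6.27 and 7.02.

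Each bEV was then set against the mean of both controls at 1.5-fold, with 1 array for each strain and therefore no test. Over the 184 pairs of a scaRNA and a bEV array, 30 passed (16.3%), 10 higher and 20 lower, against 3.96% of the pairs of all genes. At or above the median signal it was 16 of 128 pairs (12.5%), against 2.67%. Of the box C/D type 7 of 40 pairs passed, all higher, and of the mixed type 6 of 32, all lower. Of the H/ACA type 15 of 104 passed, 14 of them lower. Among its scaRNAs at or above the median signal, only SCARNA11 passed, in 1 strain. SCARNA4, SCARNA8, SCARNA16, SCARNA21 and SCARNA22 passed in 0, so the other H/ACA passes were all at low signal. Of the pairs of all genes, 1.98% were higher and 1.98% lower. The 8 comparisons share both controls, so these counts are not independent of each other. Against each control alone in the same direction, 13 pairs passed. No share of all genes was set beside this count, so it is not a result about the scaRNAs. The counts and their directions turned on the control used. Against control 2 alone 35 pairs passed, 6 higher and 29 lower, against 6.05% of the pairs of all genes, and against control 1 alone 53 passed, 31 higher and 22 lower, against 6.61%. For the box C/D type, 25 of 40 pairs were higher against control 1 alone, beside 3.18% of the pairs of all genes. Against control 2 alone 1 of 40 (2.5%) was higher, SCARNA9 in L. rhamnosus, and this share was below the 3.08% of all genes. For the mixed type, 9 of 32 pairs were lower against control 1 alone, beside 3.43% of the pairs of all genes. Against control 2 alone 6 of 32 were lower, beside 2.97%, and 0 were higher against either control. For the H/ACA type, 4 of 104 (3.85%) were higher against either control alone, close to the 3.18% and 3.08% of all genes. Against control 1 alone 13 (12.5%) were lower, beside 3.43%, and against control 2 alone 23 (22.1%), beside 2.97%. Of the H/ACA scaRNAs at or above the median signal, only SCARNA11 was among those lower against control 1. Against control 2 only SCARNA11 and SCARNA21 were.

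By strain, S. thermophilus had the most scaRNAs past 1.5-fold, 7 in all beside 3.77% of all genes. Of these 1 was higher, beside 1.81% of genes, and 6 were lower, beside 1.96%. L. plantarum had 5 beside 5.15%, with 1 higher (2.65% of genes) and 4 lower (2.51%). L. rhamnosus had 5 beside 4.64%, with 3 higher (2.46% of genes) and 2 lower (2.18%). The 2 arrays thus had equal counts with the directions shared out differently. L. acidophilus had 4 beside 3.56%, with 1 higher (1.62% of genes) and 3 lower (1.94%). Lc. lactis had 4 beside 3.49%, with 2 higher (1.59% of genes) and 2 lower (1.89%). L. paracasei had 3 beside 4.66%, with 1 higher (2.65% of genes) and 2 lower (2.01%). The other two strains had the lowest counts. L. salivarius had 2 beside 2.94%, with 1 higher (1.32% of genes) and 1 lower (1.63%), and L. fermentum had 0 beside 3.46%, in a comparison with 1.75% of genes higher and 1.71% lower. A single scaRNA is a larger share of 23 than any of these shares for 1 direction, so a count of 1 is not a result about the scaRNAs.

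Within the mixed type, SCARNA6 and SCARNA10 differed widely between strains. The median change of the type was -0.82 in L. acidophilus, -0.54 in L. plantarum and -0.58 in S. thermophilus, with 4 of 4 below the control mean in each of these 3 arrays, and ran from -0.27 to 0.07 in the other 5 arrays. The H/ACA scaRNAs were below the control mean in the same 3 arrays too, in 11, 12 and 11 of 13, with medians of -0.32, -0.24 and -0.30. This was not particular to the 3 arrays, with 11 of 13 in Lc. lactis (median -0.22) and 9 of 13 in L. paracasei (-0.25). It was 8 in L. fermentum, 7 in L. rhamnosus and 5 in L. salivarius. Whether the types differ was not tested. SCARNA6, also called U88, had 7.56 and 7.19 in the controls. It read 6.27 in L. acidophilus, 6.40 in L. plantarum and 6.50 in S. thermophilus, the 3 lowest, and 6.90 to 7.39 in the other 5 bEV arrays. In those 3 strains it was the lowest scaRNA among those of at least median signal that were past 1.5-fold from control 1 and from control 2 alike, with changes of -1.10, -0.97 and -0.87. SCARNA10, also called U85 and known to guide both kinds of modification on U5, had 7.02 in L. acidophilus, 7.42 in S. thermophilus and 7.69 in L. plantarum. Its other 5 bEV arrays read 7.87 to 8.46, around the controls at 8.08 and 8.10. The SD of SCARNA10 over the 8 bEV arrays, 0.520, was larger than that of 99.6% of genes, and that of SCARNA6, 0.416, larger than that of 98.0%. SCARNA5, also called U87, was lowest in L. acidophilus (6.73) and S. thermophilus (6.80), and L. plantarum, at 6.99, was the fourth lowest after L. paracasei (6.87). Its controls read 7.19 and 7.38, and its highest value was 7.61 in L. salivarius. SCARNA12 was lowest in L. plantarum (8.93), followed by Lc. lactis (9.22), S. thermophilus (9.25) and L. acidophilus (9.32). These 3 strains were picked out after their values were seen, and with 1 array each the difference between strains has no replicate check.

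Of the box C/D scaRNAs, SCARNA7, SCARNA9, SCARNA9L and SCARNA17 were above the control mean in 8 of 8 strains and SCARNA2 in 2 of 8. The type median ran from 0.21 in L. acidophilus to 0.57 in L. rhamnosus. In L. rhamnosus, SCARNA9 was 0.96 above the control mean, the highest scaRNA by the same rule. SCARNA9 passed 1.5-fold in 4 of 8 strains, SCARNA7 in 2, SCARNA17 in 1, and SCARNA2 and SCARNA9L in 0. Among the H/ACA scaRNAs, SCARNA11 read 4.15 in L. salivarius, 0.87 below its controls, and 4.61 to 5.13 in the other 7 strains. SCARNA3, whose 3′ end is given above, read 3.11 in L. acidophilus and 3.41 in S. thermophilus, against 4.20 and 4.17 in the controls, and 3.62 to 4.40 elsewhere. SCARNA1, also called ACA35 and known to guide U2, read 3.30 in L. plantarum, 1.27 below the control mean, and 3.91 to 4.57 in the other strains. SCARNA27, of no assigned type, was above the control mean in 7 of 8 strains and passed 1.5-fold in 2, with 6.35 in L. rhamnosus and 6.27 in L. acidophilus against 5.57 and 5.72 in the controls. SCARNA20 and SCARNA21, known to guide U12, and SCARNA15, known to guide U2, had bEV arrays that overlapped the controls. The bEV arrays of SCARNA20 ran from 3.62 to 5.04, of SCARNA21 from 6.25 to 7.0 and of SCARNA15 from 2.48 to 3.72. SCARNA4 and SCARNA8, which guide U2, passed 1.5-fold in 0 strains, with bEV arrays from 5.45 to 6.07 and from 5.75 to 6.27. Over the 8 bEV arrays the median SD was 0.278 for the 23 scaRNAs and 0.173 for all genes.

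Since most scaRNAs are cut from a host transcript, the genes around them were set beside them as hosts. By RefSeq spans, without strand, 22 of 23 scaRNAs lie inside another gene and SCARNA2 lies in none. A host was measured for 13 scaRNAs, in 12 genes. Among these, FSD2 around SCARNA15 and TMEM167A around SCARNA18 had mean signals of 3.34 and 3.18, below the median of all genes (4.63). SCARNA15 also lies in SNHG21, which was not measured. The hosts moved from -0.16 to 0.33 and 0 passed 1.5-fold, and the change had the same sign in host and scaRNA in 4 of 13 pairs. The scaRNA had the larger SD over the bEV arrays in 11 of 13 pairs, with a median of 0.250 against 0.141 for the hosts. Across the 13 pairs Spearman's rho of the changes was -0.27, which is a description across genes measured on the same arrays, with SCARNA5 and SCARNA6 in the same host.

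ATG16L1, an autophagy gene whose introns hold SCARNA5 and SCARNA6, read 6.11 in control 1 and 6.29 in control 2 and 6.40 to 6.62 in the bEV arrays. All 8 bEV arrays were above both controls, as for the hosts CHD4 and NSD2 and for 5.11% of all genes, and the change was 0.33 ± 0.10 (SE, adjusted p = 0.341 in limma), while SCARNA5 changed by -0.17 and SCARNA6 by -0.53. In L. acidophilus, L. plantarum and S. thermophilus the host read 6.41, 6.53 and 6.50. Its SD over the bEV arrays was 0.087, against 0.416 for SCARNA6. CEP295, the host of SCARNA9, read 6.70 in control 1, 7.18 in control 2 and 6.85 to 7.33 in the bEV arrays, so host and scaRNA were both lowest in control 1. KPNA4, the host of SCARNA7, read 7.43 in control 1 and 7.20 in control 2, the other way round from SCARNA7.

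**Figure D4:**
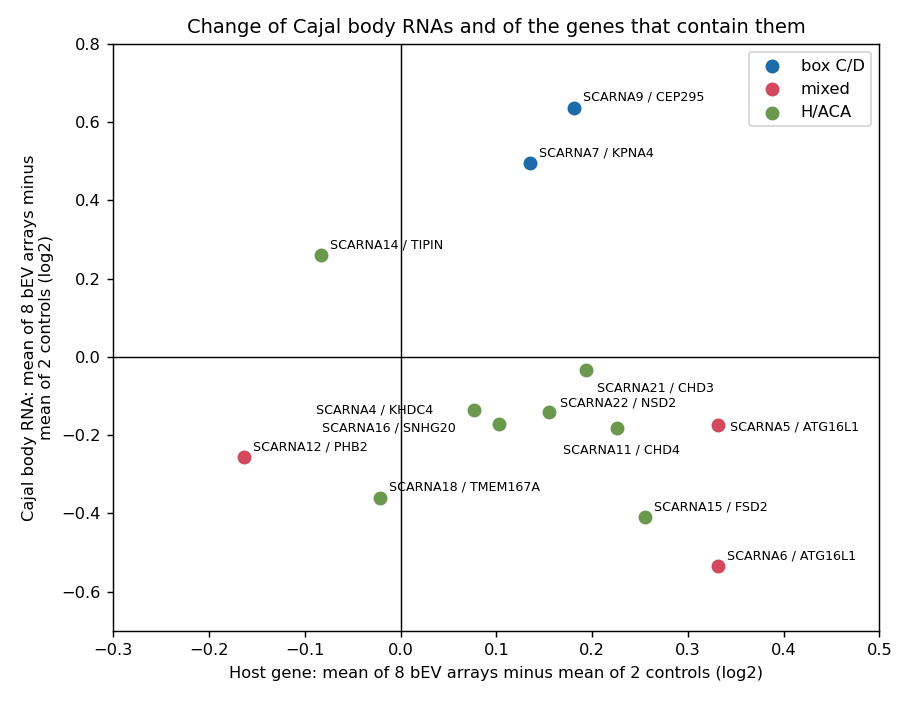
Each point is a scaRNA and its host gene, with the change of the host on the x axis and of the scaRNA on the y axis, both as the mean of 8 bEV arrays minus the mean of 2 controls on the log2 scale, coloured by structural type. Hosts lie between -0.16 and 0.33. SCARNA5 and SCARNA6 share the host at 0.33 and lie below 0, and SCARNA9 at 0.64 and SCARNA7 at 0.50 lie above it.

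The proteins that scaRNAs need were read from fixed lists, and 0 members of any list were called by limma after adjustment. Of the box H/ACA core proteins, 2 of 3 measured had an unadjusted p under 0.05, both lower, beside 5.38% of all genes lower at that p. Dyskerin (DKC1), on the same list, was not measured. NOP10, a small core subunit, read 8.71 and 8.76 in the controls and 8.22 to 8.44 in the bEV arrays, a change of -0.39 ± 0.09 (SE, adjusted p = 0.288). NHP2, another core subunit, read 9.20 and 9.17 in the controls and 8.55 to 9.10 in the bEV arrays, a change of -0.40 ± 0.14 (SE, adjusted p = 0.351). For both, all 8 bEV arrays lay below both controls, as in 4.07% of all genes, while GAR1 changed by -0.13 and overlapped them. Of the box C/D core proteins, 0 of 3 measured had an unadjusted p under 0.05. Fibrillarin (FBL) read 10.44 and 10.36 in the controls and 10.33 to 10.49 in the bEV arrays, NOP58 changed by -0.07, and SNU13 by -0.17 with all 8 bEV arrays below both controls (adjusted p = 0.494).

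Of the assembly factors, 1 of 9 measured had an unadjusted p under 0.05, a share close to the 11.3% of all genes. The factor was NUFIP1, an adaptor in box C/D assembly, with 6.45 and 6.26 in the controls and 6.47 to 6.84 in the bEV arrays (change 0.32 ± 0.11 SE, adjusted p = 0.354). Of the Cajal body and nucleolar chaperones it was 0 of 7. Coilin (COIL), which builds the Cajal body, read 6.92 and 6.79 in the controls and 6.64 to 6.94 in the bEV arrays. Of the processing and decay factors it was 2 of 10, both higher, beside 5.92% of all genes higher at that p. TENT4B, a poly(A) polymerase that tags RNAs for trimming, read 7.37 and 7.38 in the controls and 7.53 to 7.91 in the bEV arrays (change 0.29 ± 0.11 SE, adjusted p = 0.364). XRN1, a cytoplasmic 5′ exonuclease, changed by 0.31 ± 0.13 (SE, adjusted p = 0.401), with L. salivarius, at 7.24, between the controls.

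Noncoding host genes of snoRNAs showed the same order of the controls as the box C/D scaRNAs. Of the 10 measured, 9 were lower in control 1, with a median difference of -0.34 between the controls, against 0.02 for all genes. GAS5, whose introns hold several box C/D snoRNAs, read 7.69 in control 1, 8.33 in control 2 and 8.29 to 8.61 in the bEV arrays. Its control 1 array was the lowest of all 10, as for SCARNA17. The change of GAS5 was 0.40 ± 0.14 (SE, adjusted p = 0.360 in limma), but control 2 lay within its bEV arrays, close to their median of 8.36. Of the 10 genes, 2 had an unadjusted limma p under 0.05, GAS5 and EPB41L4A-AS1. Both were higher, beside 5.92% of all genes higher at that p. The difference between the controls was -0.52 for SNHG10, -0.51 for SNHG15, -0.45 for ZFAS1, -0.41 for SNHG17 and -0.28 for EPB41L4A-AS1. SNHG20, the gene around SCARNA16, was the exception at 0.27, and SCARNA16 itself differed by 0.23 in the same direction. Since these genes share arrays with the scaRNAs, the likeness is a description of control 1, and its cause was not tested.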

How the data were processed

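HEK293T cells were profiled on 10 arrays, 8 with bEVs and 2 controls. The authors deposited log2 signals per probe set. The labels name MAS5 (version not stated), the methods name the array scanning software, and how the arrays were normalized to each other was not given in the sources used here. Values were used with no further normalization, and 0 value columns were left unused. Of 53617 probe sets, 16098 were named, with symbols brought up to date through a GRCh38.p14 gene table, and the probe set of highest mean signal was kept for 779 genes with several. No filter on low signal was applied.

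The 8 bEV arrays were compared with the 2 controls by limma (version 3.58.1 in R 4.3.3) with Benjamini-Hochberg adjustment over 14884 genes, with a prior of 5.14 degrees of freedom added to 8 residual ones. At an adjusted p under 0.05 it called 0 genes, and 1682 had an unadjusted p under 0.05. On simulated data for this comparison over 14884 genes, 93 of 100 planted log2 changes of 1 and 100 of 100 of 2 were called. There were 5 false calls, for independent genes with an equal effect in all 8 arrays. No change under 1 was planted and the largest scaRNA change was 0.64 (SCARNA9), so recovery at that size was not tested. With 1 array for each bEV, single strains were counted at 1.5-fold against the mean of both controls. The number of arrays limits the precision.

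Genes were named by rule: scaRNAs whose 8 bEV arrays all lay on one side of both controls at an unadjusted p under 0.05, those of highest signal, the 4 with the largest control difference in each direction, for each strain the highest and lowest of those with at least median signal that were past 1.5-fold from both controls taken singly, and a fixed list of single scaRNAs. Other scaRNAs named, and the structural types, were chosen after their values or symbols were seen. The members and the lists were chosen with earlier results of these data known. Alternatives were each array left out, quantile normalization, centring on array medians, the mean of probe sets, a signal filter, a floor at the 10th percentile (1.8), 2-fold, each control alone, limma with trend and robust variance, and all probe sets. The counts by structural type, and those of one-sided scaRNAs against each control alone, were added after the data were seen. Other steps ran in Python 3.11.15 with scipy 1.17.1, pandas 2.3.3 and numpy 2.4.6.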

Additional observations from a re-analysis of the deposited data

Results flagged for a closer look

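Each of the 23 scaRNAs was screened for 1 bEV array far from the other 7 by Dixon's gap over range, with a critical value of 0.526 for 8 arrays. Chance flags about 1 in 20 such groups, which is about 1.15 of 23, and 2 were found. SCARNA14 read 5.38 in L. salivarius against a bEV median of 4.25, with a gap of 0.669 of the range, and its controls read 4.38 and 3.89. SCARNA18 read 5.19 in L. fermentum against a bEV median of 4.39, with a gap of 0.551 of the range, and control 2 of SCARNA18, at 5.35, was as high. Both scaRNAs were below the median signal of all genes, and neither value has a replicate.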

How the results depend on the processing

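The count of scaRNAs called by limma was 0 in every alternative, including each array left out, while the fit called 2 genes in all without control 2 and 4 of all probe sets. An unadjusted p under 0.05 was found for 2 to 3 scaRNAs in the alternatives that kept both controls, except 5 with trend and robust variance. In that setting 1021 of 14884 genes were higher and 825 lower at that limma p, beside 881 and 801 in the main fit. The count of scaRNAs with all 8 bEV arrays on one side went from 1 to 6 without control 1 and 9 without control 2, where 1 control alone has to be passed. No paired analysis was made because the bEV arrays carry no replicate number that pairs them with a control. In the sample order, control 1 comes before L. acidophilus, L. rhamnosus, L. plantarum, L. salivarius and S. thermophilus. Control 2 follows these and comes before L. paracasei, L. fermentum and Lc. lactis. Whether this order marks separate runs is not stated. With only genes at or above the median signal, pairs at 1.5-fold went from 30 to 16, scaRNAs at 1.5-fold between the controls from 6 to 3, and the median level from 6.76 to 7.86, since fewer scaRNAs enter. At 2-fold the pairs were 6 and the scaRNAs between the controls 2, and against each control alone 13 pairs passed. No share of all genes was set beside these counts. Leaving out a control gave 35 to 53 pairs, the highest without control 2. The median change stayed between -0.19 and -0.11 with single arrays left out. Among single scaRNAs, 17 of 23 kept their sign in all alternatives. Without control 2 the changes turned to 0.36 for SCARNA2, 0.25 for SCARNA18, 0.24 for SCARNA20 and 0.16 for SCARNA21, and without control 1 those of the same 4 were -0.40, -0.97, -0.38 and -0.23. Without control 1 they turned to -0.06 for SCARNA17 and 0.36 for SCARNA23, and without control 2 these were 0.87 and -1.16. SCARNA20 was at 0.05 without Lc. lactis and SCARNA21 at 0.04 without L. plantarum. The cause of these turns was not tested. Quantile normalization and centring on medians gave 30 and 31 pairs. Low signal limits the 7 scaRNAs below the median of all genes.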
